A study of Mus musculus with 12 samples.

Results

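The nuclear-encoded members of respiratory complexes II, III and IV were followed across sex and oxygen in the mouse ventricle. The set was a fixed list of 33 genes, found by symbol among the 39210 genes of the table. It held 4 subunits of complex II, 9 of complex III, the carrier cytochrome c, 8 genes that form 4 isoform pairs of complex IV, 7 further complex IV subunits or related genes and 4 complex IV assembly factors. All 33 had enough reads to be tested.

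RNA was sequenced from frozen ventricles of C57BL/6 mice in 12 libraries. Male normoxia (MC) and female normoxia (FC) mice breathed room air of 20.9% oxygen for 4 weeks. For male hypoxia (MH) and female hypoxia (FH), chamber oxygen was lowered by 1% a day over 14 days to 7% and held there for 2 weeks. Each group had 3 libraries, named below by group and number (MH2 is male hypoxia library 2). The labels give no age and no genetic change, and the same wild-type strain was used in every group. They do not say whether a library came from 1 animal or a pool, and a p-value here reflects the spread among libraries, which may be technical. The ventricle was not split into left and right.

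The respiratory chain sits in the inner mitochondrial membrane. Complex II (succinate dehydrogenase) passes electrons from succinate to ubiquinone, complex III passes them from ubiquinol to cytochrome c, and complex IV (cytochrome c oxidase) passes them from cytochrome c to oxygen while pumping protons. Complex IV is the step that consumes oxygen. Its catalytic core is encoded in mitochondrial DNA, and nuclear genes supply the surrounding subunits. Several of those come as alternative isoforms: in adult heart and skeletal muscle, Cox6a2, Cox7a1 and Cox8b are the muscle forms, and Cox6a1, Cox7a2 and Cox8a are the widely expressed or liver forms. For subunit 4, Cox4i1 is the common form and Cox4i2 is a form known for expression in lung and in vessel-wall cells and for responding to oxygen.

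Library totals ranged from 14915800 to 19397900 estimated counts, and members had between 134 (Cox4i2) and 34769.8 (Cox4i1) estimated counts in a library. Transcripts of mitochondrial DNA took 27.6% to 29.3% of counts in MC, 15.8% to 23.1% in MH, 24.5% to 26.4% in FC and 21.5% to 23.0% in FH. The markers fitted heart muscle: all 10 genes of the ventricular cardiomyocyte list were abundant, and their summed level was 48231 to 71673 CPM. Whether atrial tissue was present was not tested. CPM here are counts scaled to a library size corrected by TMM, a scaling that assumes that most genes do not change. Libraries of 1 group differed among themselves. On the first principal component of log2 CPM, MH2, MH3, FH2 and FH3 lay between 37.5 and 47.2, MH1 at 16.9, FH1 at 2.68 and normoxia between -40.4 and -20.6. FC3 stood apart on the second, at -69.7 against -14.7 to 20.9 for the rest. Summed atrial markers were 1772 CPM in MH2 and 999 CPM in MH3, against 559 CPM in MH1 and 147 to 208 CPM in MC. In FH they reached 1096 CPM (FH3). The highest sum was mostly Nppa, which reached 1512 CPM, while Myl4, the next highest gene of the list, reached 91.8 CPM. Over the 6 atrial genes tested, the median log2 fold change in hypoxia was 3.43 in males and 0.63 in females. Of the adipocyte list, Adipoq did not exceed 2.19 CPM in any library and Plin1 was listed at 0, but Fabp4 reached 1180 CPM. The sum of that list was 533 to 665 CPM in MC, 936 to 1202 CPM in MH, 564 to 997 CPM in FC and 778 to 1023 CPM in FH.

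The members together made up a similar part of the nuclear transcriptome in most libraries. Of the TPM (a level corrected for transcript length and library) outside mitochondrially encoded genes, they held 6.03%, 6.02% and 6.22% in MC, 6.21%, 6.17% and 5.19% in MH, 5.86%, 5.797% and 5.99% in FC, and 5.78%, 5.66% and 5.36% in FH. MH3 and the 3 FH libraries were under all normoxia libraries. Cox8b and Cox7b had the highest levels, with a mean of 2972 and 2898 TPM over the 6 normoxia libraries. Their ranges over all 12 libraries, 2351 to 3522 TPM for Cox8b and 2692 to 4264 TPM for Cox7b, overlapped, so their order is not settled. Cox4i1, Cox6c, Cox5b, Cox6a2 and Uqcrq followed between 1778 and 2025 TPM. At the bottom were Surf1 (26.8 TPM), Cox10 (14.6 TPM), Cox4i2 (11.9 TPM) and Cox15 (10.4 TPM). The range of Cox4i2 over the 12 libraries (10.2 to 21.2 TPM) overlapped those of Cox10 (13.2 to 19.8 TPM) and Cox15 (5.71 to 12.8 TPM), and the latter ranges did not overlap each other. Very short deposited lengths raise TPM: the average length listed for Cox8b was 110 bases and that for Cox7a1 was 143 bases. The headers do not say whether these are full transcript lengths.

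Averaged over the sexes, 8 of the 33 members were lower in hypoxia and none was higher, by edgeR's quasi-likelihood test at an adjusted p under 0.05. The 8 were Sdhc of complex II, Uqcrc1, Uqcrc2, Uqcrfs1 and Uqcr11 of complex III, Cox7a1 and Cox8b of complex IV and the assembly factor Cox15. Of all 13960 genes tested, 12.9% were lower and 15% were higher. The members' log2 fold changes had a median of -0.19 and ran from -0.67 to 0.17. The median over all genes was -0.01. All members but Cox4i2 and Cox6a1 had a negative log2 fold change. The other 25 did not pass. At unadjusted p under 0.05, 18 members were lower and 0 higher, where 5683 of 13960 genes had such a p in either direction.

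**Figure D1:**
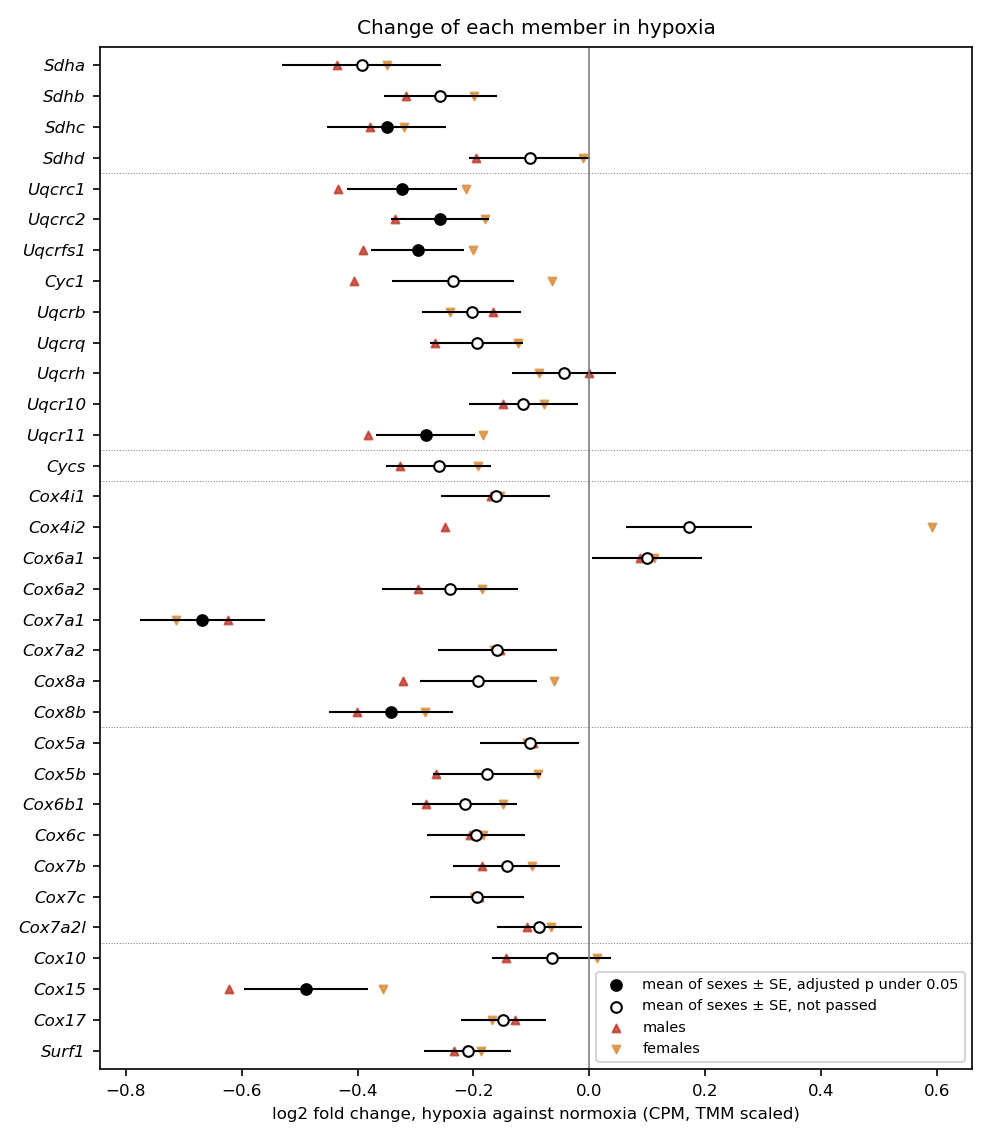
Log2 fold change of each of the 33 members in hypoxia against normoxia (x axis, TMM-scaled CPM). Circles show the mean of the male and female change with its SE, filled where the adjusted p was under 0.05; triangles show males and females alone. The 8 filled circles lie to the left of 0, with Cox7a1 farthest at -0.67.

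These calls are relative to the median gene. When counts were scaled to library totals without TMM factors, the median gene itself rose by 0.20 on the log2 scale, the members' median was 0.01, and 2 members were lower (Cox7a1 and Cox15) and 2 higher (Cox4i2 and Cox6a1). With totals that left out mitochondrially encoded and haemoglobin genes, the median gene was at 0.11, the members' median at -0.08, and 5 members were lower (Cox7a1, Cox15, Sdhc, Uqcrc1 and Uqcrfs1). On log2(TPM + 1) tested with limma, the median gene was at 0.19, the members' median at 0.10, none was lower and Cox4i2 and Cox6a1 were higher. Calls over all genes moved with the scale too. Of 13960 genes, 640 were lower and 4160 higher with library totals, and 284 were lower and 4395 higher on log2(TPM + 1). With totals outside mitochondrially encoded and haemoglobin genes, 1051 of 13930 were lower and 3028 higher. Measured against the median gene, the members' median was -0.19 on each count-based scale and -0.09 on the TPM scale. Cox7a1 was at -0.66, -0.65, -0.66 and -0.56 against the median gene with TMM factors, library totals, totals outside those genes and TPM, in that order.

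The count also moved with single libraries. It was 18 without MH1 and 13 without FH1, and 5 without FC1, 4 without MH2, 3 without each of MC1, MC3, MH3 and FH2, and 2 without FH3. Without FC3 it stayed at 8. Calls over all genes moved too. With all libraries 1796 of 13960 genes were lower, against 1846 of 14309 without MH1, 2209 of 14331 without FH1 and 2149 of 14290 without FC3. Where the members' count is given above as 5 or fewer, they ran from 1449 of 14335 (without FC1) to 1180 of 14295 (without FH3). Without MH2 and MH3 together a single MH library is left. The members' median log2 fold change was then -0.10, against -0.02 over all genes. With all libraries DESeq2 called 12 members lower and limma voom 9, where they called 2083 and 1834 of all 13960 genes lower. Cox7a1 and Cox15 passed with each single library left out, whereas Uqcrfs1 did not pass without FH3 and each of the other 5 failed without at least 6 of the 12 libraries in turn.

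Library by library, the members' median log2 CPM against the mean of the same-sex normoxia libraries was -0.07 in MH1, -0.28 in MH2, -0.42 in MH3, 0.00 in FH1, -0.17 in FH2 and -0.28 in FH3. In MH3 all 33 members were below that mean, in MH2 30, and in FH2 and FH3 31 each. In FH1 16 were below it. Summed ventricular cardiomyocyte markers moved with these medians: they were 60504 CPM in MH1 and 71673 CPM in FH1, but 51305 CPM in MH2, 48231 CPM in MH3, 49756 CPM in FH2 and 51356 CPM in FH3, against 61486 to 68472 CPM in MC and 61432 to 70456 CPM in FC. Of these 10 markers 2 were lower in the averaged contrast (Pln and Myl2), with a median log2 fold change of -0.18, a value near that of the members. This depended on the scaling, as it did for the members. The marker median was 0.02 with library totals (2 lower, 1 higher) and 0.13 on log2(TPM + 1) (0 lower, 1 higher). In summed TPM the markers were at 60323 in MH2, above MC (54160.5 to 56770), and at 51539 in MH3, below it. FH2 (56761) and FH3 (57218) lay within FC (53989 to 63318) by that sum. In bulk tissue, fewer cardiomyocytes and less RNA of these genes per cardiomyocyte cannot be told apart. Markers of other cells were higher beside them, 7 of 8 endothelial, 6 of 8 fibroblast, 3 of 8 macrophage and 7 of 7 erythroid genes. These counts were 4, 3, 2 and 7 without MH2 and MH3, where the calls of Pln and Myl2 were lost. Summed endothelial markers were 848 to 1028 CPM in MC, 1260.2 to 1563 CPM in MH, 969 to 1170.5 CPM in FC and 1287 to 1706 CPM in FH, and summed fibroblast markers were 661 to 710.4 CPM, 1058 to 1631 CPM, 619.8 to 809 CPM and 707 to 1353 CPM in the same order. Their part in the members' change was not tested.

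**Figure D2:**
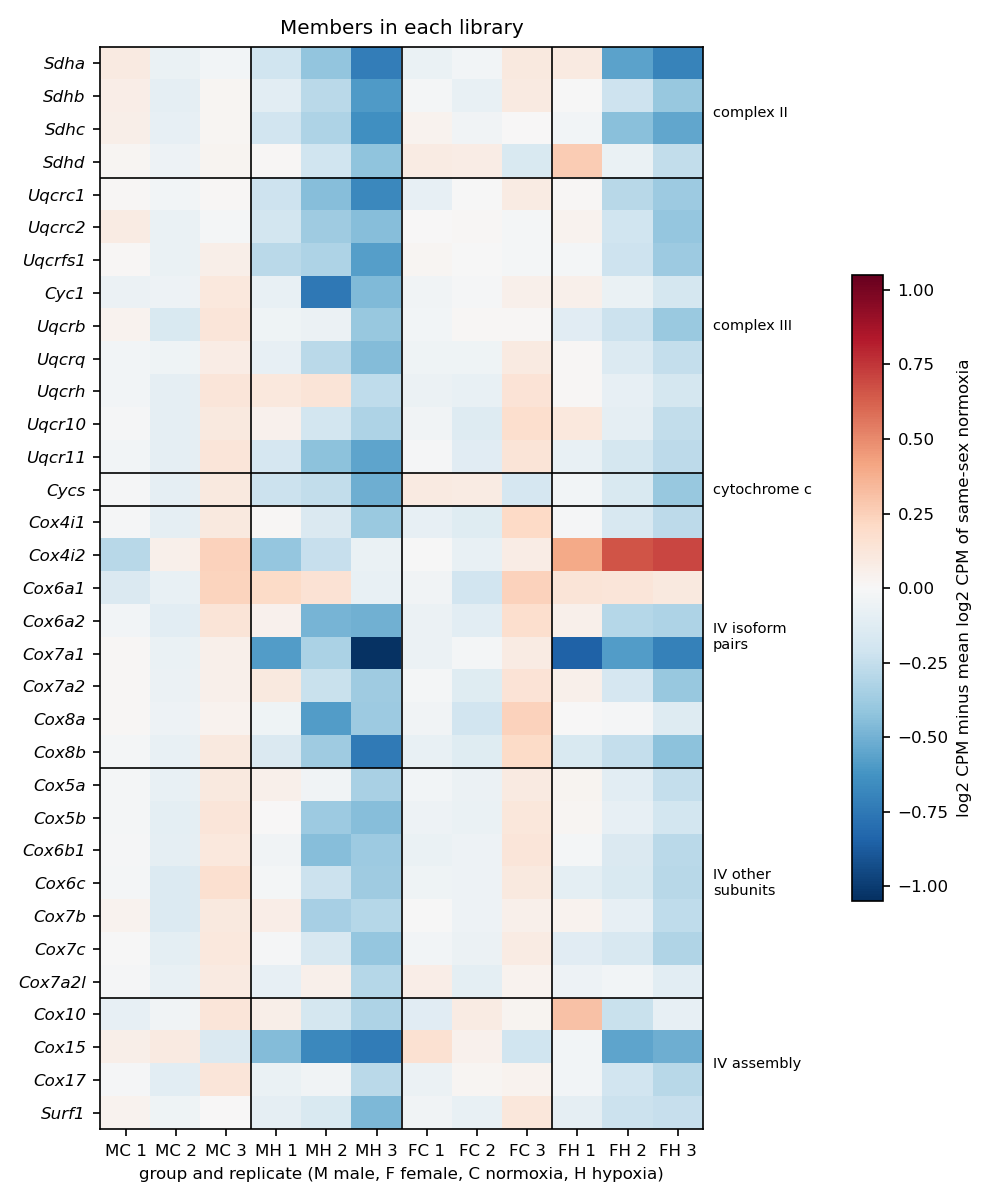
Each member (rows, by complex) in each of the 12 libraries (columns), as log2 CPM minus the mean of the same-sex normoxia libraries; blue is lower and red higher. MH2, MH3, FH2 and FH3 are blue over most rows, MH1 and FH1 are paler apart from Cox7a1, and Cox4i2 is red in the 3 FH libraries.

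**Figure D3:**
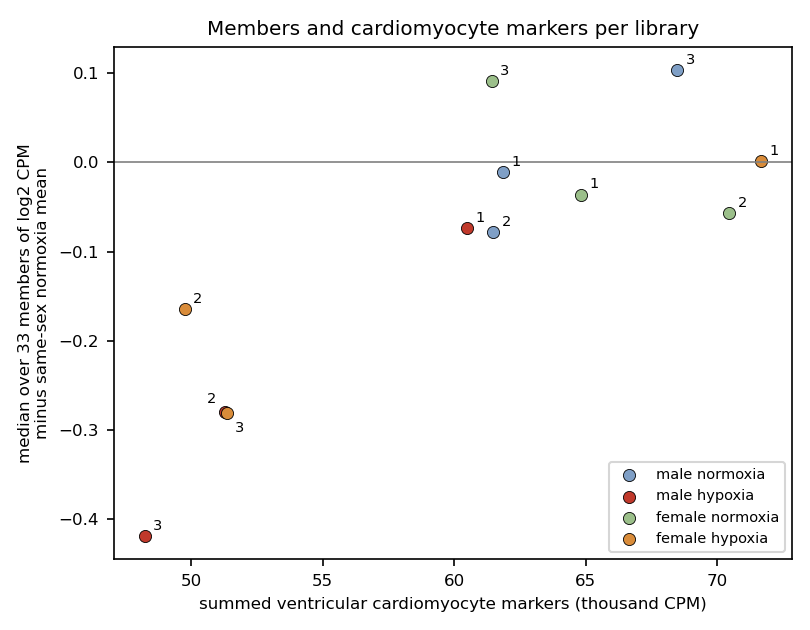
Median over the 33 members of log2 CPM minus the same-sex normoxia mean (y axis) against the summed CPM of 10 ventricular cardiomyocyte markers (x axis, printed as CPM divided by 1000), 1 point per library, numbered by replicate. The 4 libraries with marker sums between 48231 and 51356 CPM are the 4 with the lowest medians. Both axes use TMM-scaled CPM, and the marker sums are ordered otherwise in TPM.

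Complex II had 1 of its 4 members lower, Sdhc, and DESeq2 called 3. Sdhc (ENSMUSG00000058076), a membrane anchor that helps bind ubiquinone, was at 584, 528 and 568 CPM in MC and at 488, 446 and 359 CPM in MH. In females it was at 539, 511 and 527 CPM in FC and at 515, 387 and 361 CPM in FH. Every MH library was below every MC library, while FH1 lay within the FC range. The averaged log2 fold change was -0.35 ± 0.10 (SE; adjusted p = 0.0267). The deposited average length of Sdhc was 250 to 364 bases over the libraries, so its TPM rests on small length values.

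Sdha, the flavoprotein that oxidises succinate, had a larger but more scattered difference. It was at 1772, 1575 and 1627 CPM in MC, at 1429, 1244 and 1002 CPM in MH, at 1476, 1519 and 1669.7 CPM in FC, and at 1657, 1049.8 and 953 CPM in FH. FH1 was as high as the normoxia libraries and the other hypoxia libraries were under all of them. Its log2 fold change was -0.39 ± 0.14 (SE; adjusted p = 0.0531). Sdhb, the iron-sulphur subunit, was at -0.26 ± 0.10 (SE; adjusted p = 0.0692), with 653 to 911 CPM in MH against 923 to 1034 CPM in MC, and with FH1 (931 CPM) inside the FC range of 885 to 998 CPM. The other anchor, Sdhd, was at -0.10 ± 0.10 (SE).

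Complex III had 4 of 9 members lower, and all 9 log2 fold changes were negative, from -0.32 to -0.04. Uqcrfs1 (ENSMUSG00000038462), the Rieske iron-sulphur protein that takes electrons from ubiquinol, was at 928, 879 and 962 CPM in MC and at 758, 736 and 618 CPM in MH. In females it was at 846, 830.1 and 821 CPM in FC and at 819, 715 and 638 CPM in FH. Hypoxia lay below normoxia without overlap in both sexes, though FH1 was close to FC3, the lowest FC library. The averaged log2 fold change was -0.30 ± 0.08 (SE; adjusted p = 0.0191), and in males alone it was -0.39 ± 0.11 (SE; adjusted p = 0.0399). The male call was lost without any one of 8 libraries.

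The core protein Uqcrc1 (ENSMUSG00000025651) was at 1457, 1421 and 1462 CPM in MC, at 1243, 1064 and 906 CPM in MH, at 1275, 1343 and 1436 CPM in FC, and at 1364, 1100.0 and 1034 CPM in FH. Males separated fully and FH1 overlapped FC. Its averaged log2 fold change was -0.32 ± 0.10 (SE; adjusted p = 0.0268). The second core protein, Uqcrc2, was at 1096 ± 60.9 CPM in MC, 869 ± 79.1 CPM in MH, 1019.7 ± 10.9 CPM in FC and 900.3 ± 140.0 CPM in FH (mean ± SD, n = 3), with an averaged log2 fold change of -0.26 ± 0.08 (SE; adjusted p = 0.0422). Uqcrc2 is named here because it passed, after its values were seen.

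Uqcr11 (ENSMUSG00000020163), a small accessory subunit, was at 515, 489.9 and 571 CPM in MC, at 465, 389 and 357 CPM in MH, at 473, 440.2 and 523 CPM in FC, and at 451, 419 and 394 CPM in FH. The pattern was again a full separation in males and an overlap through FH1 in females, with an averaged log2 fold change of -0.28 ± 0.08 (SE; adjusted p = 0.0288). The remaining 5 members, Cyc1, Uqcrb, Uqcrq, Uqcr10 and the hinge protein Uqcrh, did not pass. Of these, Cyc1, the haem subunit that hands electrons to cytochrome c, was at -0.24 ± 0.11 (SE) and Uqcrh at -0.04 ± 0.09 (SE).

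Cytochrome c itself, Cycs (ENSMUSG00000063694), the mobile carrier between complexes III and IV, was at 634, 601 and 689 CPM in MC, at 549, 536 and 448 CPM in MH, at 636, 635 and 527 CPM in FC, and at 584, 535 and 454 CPM in FH. It did not pass with edgeR (-0.26 ± 0.09, SE; adjusted p = 0.0515). The level is uncertain, because 3 other listed genes share a stretch of at least 100 bases at 98% identity or more with it. Those genes together held counts equal to 58.8% of those given to Cycs, most at Gm10053.

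The isoform pairs of complex IV are the genes where members differed most from one another. The pairs allow a comparison that needs no scaling between libraries, since the share of an isoform in its pair is taken within a library. Promoter sequence is shown for the pair of subunit 7a and the pair of subunit 8, the pairs in which a muscle form was lower in hypoxia, so that the muscle and the common form can be read side by side. The stretches are the 250 bases before each gene's start in RefSeq (GRCm38.p6), on the gene's strand, and lie at chr7:30183921-30184170 (Cox7a1, plus), chr9:79759854-79760103 (Cox7a2, minus), chr7:140900447-140900696 (Cox8b, minus) and chr19:7217617-7217866 (Cox8a, minus). Capitals mark an E-box (CANNTG), a GC box (GGGCGG) or the core of the hypoxia response element (ACGTG), searched on both strands.
Cox7a1: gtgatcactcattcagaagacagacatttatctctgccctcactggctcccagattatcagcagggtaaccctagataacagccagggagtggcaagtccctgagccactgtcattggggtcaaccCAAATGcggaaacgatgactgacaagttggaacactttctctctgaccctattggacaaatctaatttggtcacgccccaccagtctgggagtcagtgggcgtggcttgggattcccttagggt
Cox7a2: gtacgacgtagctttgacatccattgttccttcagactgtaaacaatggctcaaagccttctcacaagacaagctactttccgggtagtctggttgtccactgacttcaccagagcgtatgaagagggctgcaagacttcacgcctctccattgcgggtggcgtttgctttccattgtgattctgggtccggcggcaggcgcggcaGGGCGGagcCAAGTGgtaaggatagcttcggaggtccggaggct
Cox8b: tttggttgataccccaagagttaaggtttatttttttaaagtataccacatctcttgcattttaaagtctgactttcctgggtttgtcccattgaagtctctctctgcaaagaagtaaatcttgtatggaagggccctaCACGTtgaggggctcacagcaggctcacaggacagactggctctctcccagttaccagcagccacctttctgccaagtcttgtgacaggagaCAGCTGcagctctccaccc
Cox8a: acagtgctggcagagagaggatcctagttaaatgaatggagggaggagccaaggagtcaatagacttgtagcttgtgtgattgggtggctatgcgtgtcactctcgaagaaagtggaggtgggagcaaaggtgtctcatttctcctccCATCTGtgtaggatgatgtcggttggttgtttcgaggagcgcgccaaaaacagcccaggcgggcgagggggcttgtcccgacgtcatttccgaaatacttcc

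Each of the 4 windows held 1 E-box. Of these 4, the Cox7a2 window held a GC box and the Cox8b window the hypoxia response core, where it reads CACGT on the strand shown. RefSeq gave a window for 23 of the 33 members. An E-box was in 13 of them (56.5%, against 66.2% of all 32851 windows of this length), a GC box in 8 (34.8% against 32.7%) and the hypoxia response core in 5 (21.7% against 16.6%), namely Cox5a, Cox8b, Cycs, Sdha and Uqcr11. The members' shares were close to those of all windows for the GC box and the hypoxia core. A match describes letters in the window and not binding.

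Cox7a1 (ENSMUSG00000074218), the heart and muscle form of subunit 7a, had the largest change of the 33 members in either direction with TMM factors and with library totals. On log2(TPM + 1), Cox4i2 (0.45) and Cox6a1 (0.42) changed by more than Cox7a1. It was at 351, 331 and 361 CPM in MC and at 231, 276 and 169 CPM in MH. In females it was at 347, 357 and 385 CPM in FC and at 201, 241 and 222 CPM in FH. All 6 hypoxia libraries were under all 6 normoxia libraries, FH1 and MH1 included. Hypoxia averaged 62.9% of normoxia, a log2 fold change of -0.67 ± 0.11 (SE; adjusted p = 0.00171). Each sex passed alone, at -0.62 ± 0.15 (SE; adjusted p = 0.0201) in males and -0.71 ± 0.15 (SE; adjusted p = 0.0260) in females. Among all genes tested, 7.1% were lower in males and 2.02% in females. The male call was lost without MC1, MC3 or MH3 and the female call without FC1, FC2, FH2 or FH3. On log2(TPM + 1) the averaged value was -0.37, with an adjusted p of 0.0548 by limma, and on the other scales it kept its call.

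The common form Cox7a2 did not pass (-0.16 ± 0.10, SE; adjusted p = 0.268). It was at 331, 315 and 340.2 CPM in MC, at 354, 279.8 and 253 CPM in MH, at 303, 282 and 338 CPM in FC, and at 319, 272 and 233 CPM in FH, with overlap in both sexes. The share of Cox7a1 in the TPM of the pair was 75.2%, 75.0% and 75.2% in MC and 65.2%, 73.8% and 65.7% in MH. It was 76.6%, 78.4% and 76.5% in FC and 64.3%, 71.8% and 73.2% in FH. Hypoxia was below normoxia without overlap in both sexes, and the 3 MC libraries differed by less than 1 point. The averaged difference was -7.17 points (exact two-sided permutation test within sex, p = 0.005, the smallest that 400 arrangements can give; adjusted over the 4 pairs, p = 0.01). It was -6.91 points in males and -7.42 points in females, and within 1 sex the smallest p that 3 libraries against 3 can give is 0.1, which both reached. The difference without MH2 and MH3 was -8.69 points and missed the threshold (adjusted p = 0.05 by the same exact permutation test, from the smallest p that these libraries allow).

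The muscle isoforms were also set against the tissue's cardiomyocyte RNA. Per 1000 CPM of summed ventricular cardiomyocyte markers, Cox7a1 was at 5.67, 5.38 and 5.27 CPM in MC, at 3.82, 5.38 and 3.51 CPM in MH, at 5.36, 5.07 and 6.27 CPM in FC, and at 2.81, 4.85 and 4.33 CPM in FH. MH2 was within the MC range, and the other 5 hypoxia libraries were under all same-sex normoxia libraries. The lowest value was in FH1, the library with the highest marker sum. Of the other muscle forms, Cox8b separated in males but not in females, and Cox6a2 separated in neither sex. By the same ratio Cox8b was at 9.87, 9.54 and 9.71 CPM in MC, 9.23, 9.35 and 7.70 CPM in MH, 8.12, 7.22 and 10.3 CPM in FC, and 6.92, 9.38 and 7.99 CPM in FH, without overlap in males and with overlap in females. Cox6a2 was at 23.2, 22.1 and 23.5 CPM in MC, 24.9, 20.4 and 21.4 CPM in MH, 20.3, 18.0 and 25.2 CPM in FC, and 19.9, 22.4 and 21.3 CPM in FH. Its groups overlapped in both sexes, and MH1 was above every MC library.

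**Figure D4:**
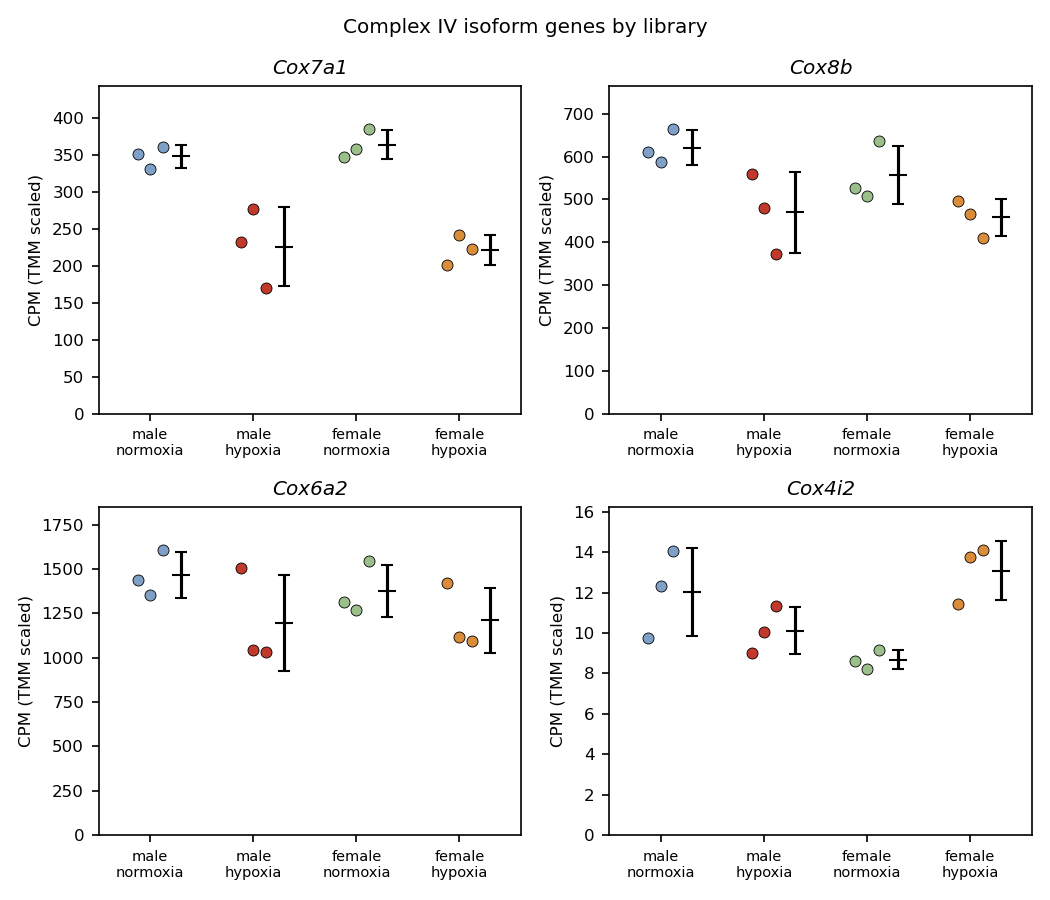
CPM (y axis, from 0) of Cox7a1, Cox8b, Cox6a2 and Cox4i2 in each library, with the group mean and SD (n = 3) as bars. For Cox7a1 all hypoxia points (169 to 276 CPM) lie under all normoxia points (331 to 385 CPM), and Cox4i2 is higher in FH (11.4 to 14.1 CPM) than in FC (8.25 to 9.19 CPM).

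Cox8b (ENSMUSG00000025488), the muscle form of subunit 8, was at 610.4, 587 and 665 CPM in MC, at 559, 479.6 and 371 CPM in MH, at 527, 509 and 636 CPM in FC, and at 496, 467 and 410.4 CPM in FH. Hypoxia lay below normoxia in both sexes, by a small margin between the nearest libraries (559 against 587 CPM in males and 496 against 509 CPM in females). The averaged log2 fold change was -0.34 ± 0.11 (SE; adjusted p = 0.0330). The call was lost without any one of MC1, MC3, MH2, MH3, FC3, FH2 or FH3. Cox8a, the common form, was at 130.0, 124 and 132 CPM in MC, at 125, 85.6 and 98.7 CPM in MH, at 120.3, 107 and 146 CPM in FC, and at 124, 122 and 112 CPM in FH, and did not pass (-0.19 ± 0.10, SE; adjusted p = 0.177). The share of Cox8b in its pair was 92.9% ± 0.245 in MC, 92.5% ± 1.37 in MH, 92.4% ± 0.329 in FC and 91.3% ± 0.368 in FH (mean ± SD, n = 3). In females all 3 FH libraries (90.9% to 91.6%) were under all FC libraries (92.2% to 92.8%), whereas MH2 (93.9%) exceeded every MC library. The averaged difference of -0.82 points did not pass (exact permutation test, p = 0.095, adjusted p = 0.125).

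Cox6a2 (ENSMUSG00000030785), the muscle form of subunit 6a, was at 1438, 1356 and 1607 CPM in MC, at 1508, 1045 and 1034 CPM in MH, at 1313, 1270.1 and 1546 CPM in FC, and at 1423, 1115 and 1094 CPM in FH. MH1 and FH1 lay within normoxia, and the gene did not pass (-0.24 ± 0.12, SE; adjusted p = 0.147). Its partner Cox6a1 was at 72.1, 76.0 and 94.1 CPM in MC, at 92.2, 89.0 and 76.1 CPM in MH, at 83.1, 74.2 and 101 CPM in FC, and at 93.9, 93.4 and 91.8 CPM in FH. Cox6a1 did not pass either (0.10 ± 0.09, SE; adjusted p = 0.461).

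Their ratio moved more regularly than either gene. The share of Cox6a2 was 93.7%, 93.1% and 92.8% in MC, 92.5%, 89.9% and 91.1% in MH, 92.2%, 92.8% and 92.0% in FC, and 91.9%, 90.0% and 90.0% in FH. All hypoxia libraries were under all same-sex normoxia libraries, MH1 and FH1 by the smallest margin. The averaged difference was -1.90 points (exact permutation test, p = 0.005, adjusted p = 0.01). Without MH2 and MH3 it was -1.23 points (adjusted p = 0.0667).

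**Figure D5:**
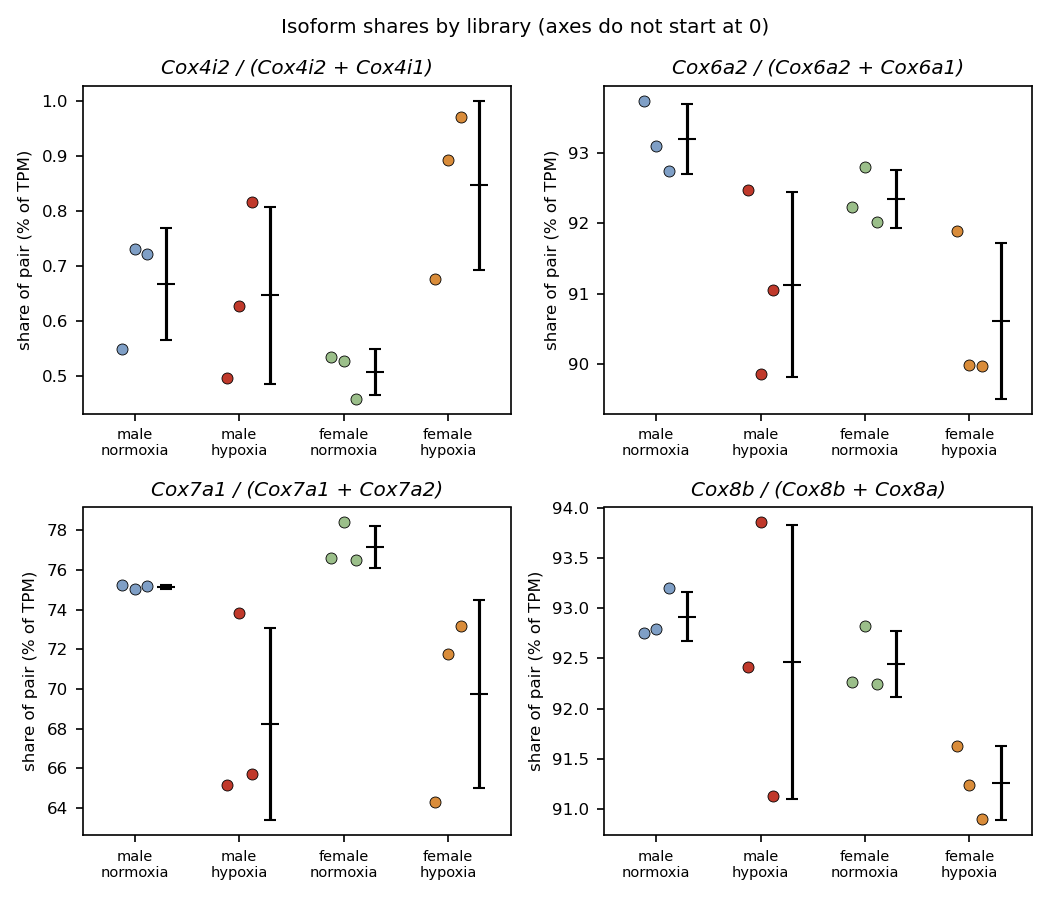
Share of the first isoform in the TPM of its pair (y axis, percent; axes do not start at 0) in each library, for 4 pairs, with the group mean and SD (n = 3). Hypoxia points lie under same-sex normoxia points for Cox7a1 and Cox6a2 in both sexes and for Cox8b in females, and FH points lie above FC points for Cox4i2.

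Cox4i2 (ENSMUSG00000009876), the second form of subunit 4, was the 1 member higher in hypoxia, and this in females. It was at 8.63, 8.25 and 9.19 CPM in FC and at 11.4, 13.8 and 14.1 CPM in FH, a log2 fold change of 0.59 ± 0.15 (SE; adjusted p = 0.0462). Of all genes, 3.97% were higher in females. In males it was at 9.75, 12.3 and 14.1 CPM in MC and at 9.005, 10.1 and 11.3 CPM in MH, with overlap and a log2 fold change of -0.25 ± 0.15 (SE; adjusted p = 0.286). The difference between the sexes in the response was 0.84 ± 0.22 (SE) on the log2 scale and did not pass (edgeR, unadjusted p = 0.00247, adjusted p = 0.545). FC was itself below MC by 0.47 ± 0.15 (SE; adjusted p = 0.642). The female call rests on few reads and on single libraries: it was lost without any one of 10 libraries, all but MC1 and FH1, and with limma voom.

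Against its partner, Cox4i2 was a trace. Cox4i1 was at 1847 ± 127 CPM in MC, 1642 ± 225 in MH, 1758 ± 233 in FC and 1580.0 ± 143 in FH (mean ± SD, n = 3), and did not pass (-0.16 ± 0.09, SE; adjusted p = 0.222). Cox4i2 held 0.550%, 0.731% and 0.722% of the pair's TPM in MC, 0.496%, 0.628% and 0.816% in MH, 0.534%, 0.527% and 0.459% in FC, and 0.675%, 0.893% and 0.971% in FH. The averaged difference of 0.16 points did not pass (exact permutation test, p = 0.125, adjusted p = 0.125), and in females it was 0.34 points with no overlap. Of 10 pericyte and smooth muscle markers, genes of the cells in vessel walls, 1 was higher in females and none lower, and 3 had negative log2 fold changes. Their sum was 1023 to 1177 CPM in FC and 1162 to 1746 CPM in FH, which overlap. In MC it was 998 to 1099.8 CPM and in MH 1103 to 1614 CPM. Per 1000 CPM of these markers Cox4i2 was at 7.34, 7.57 and 8.98 CPM in FC and at 9.83, 8.94 and 8.08 CPM in FH, which overlap. In males the ratio was 9.17, 12.4 and 12.8 CPM in MC and 8.17, 7.93 and 7.02 CPM in MH, without overlap.

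None of the 7 further complex IV members passed with edgeR, DESeq2 or limma voom. All 7 had negative log2 fold changes, from -0.21 to -0.09. With edgeR 3 had an unadjusted p under 0.05, as had 5683 of all 13960 genes in the averaged contrast. Cox6b1, which lies on the intermembrane side of the complex, was at 792, 746 and 861 CPM in MC, at 778, 585 and 611 CPM in MH, at 739, 746 and 844 CPM in FC, and at 766, 699 and 638 CPM in FH (-0.21 ± 0.09, SE; adjusted p = 0.0964). Cox6c was at 863, 792 and 983 CPM in MC, 863, 747 and 676 CPM in MH, 823, 819.9 and 914 CPM in FC, and 793, 763 and 696 CPM in FH (-0.19 ± 0.08, SE; adjusted p = 0.107). Its female groups did not overlap and its male groups did. Cox7c was at 494, 461 and 536 CPM in MC, 490.4, 442 and 374 CPM in MH, 468, 458 and 507 CPM in FC, and 440.3, 426 and 383 CPM in FH (-0.19 ± 0.08, SE; adjusted p = 0.0964). Genes sharing a near-identical stretch held counts equal to 28.4% of those of Cox7c. Cox5a, Cox5b, Cox7b and Cox7a2l, a relative of subunit 7a that takes part in supercomplexes, were between -0.18 and -0.09.

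Among the 4 assembly factors, Cox15 was lower. Cox15 (ENSMUSG00000040018) makes the haem A that complex IV carries. It was at 41.3, 42.2 and 35.6 CPM in MC, at 28.9, 24.8 and 23.9 CPM in MH, at 38.9, 36.1 and 30.2 CPM in FC, and at 34.1, 23.7 and 24.4 CPM in FH. Males separated fully, and FH1 exceeded FC3. The averaged log2 fold change was -0.49 ± 0.11 (SE; adjusted p = 0.00702), and in males it was -0.62 ± 0.15 (SE; adjusted p = 0.0200), a male call lost without MC1, MC2, MH2 or MH3. The male call was also lost with transcript length as offset, with library totals and on log2(TPM + 1). The deposited average length of Cox15 ran from 1675 to 3100 bases over the libraries. Its averaged call ended without MH2 and MH3 together, where it was at -0.41, and on log2(TPM + 1), where it was at -0.34.

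The other 3 did not pass. Surf1, needed early in assembly of the complex, was at 33.7, 31.7 and 32.97 CPM in MC, 30.8, 29.3 and 23.7 CPM in MH, 28.6, 27.8 and 31.9 CPM in FC, and 27.6, 25.1 and 24.8 CPM in FH. Its groups did not overlap in either sex, at -0.21 ± 0.07 (SE; adjusted p = 0.0560). The copper chaperone Cox17 was at 126, 118 and 139.7 CPM in MC, 121, 125 and 105 CPM in MH, 121, 128 and 129 CPM in FC, and 123, 109.8 and 103 CPM in FH (-0.15 ± 0.07, SE; adjusted p = 0.151). Genes sharing a stretch of its sequence held counts equal to 27.7% of its own, most at Slc3a2. These are the whole counts of those genes, not reads known to come from Cox17. Cox10, the enzyme before Cox15 in haem A synthesis, was at -0.07 ± 0.10 (SE).

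By sex, 3 members were lower in males (Uqcrfs1, Cox7a1 and Cox15) and none was higher, where 7.1% of all genes were lower and 8.47% higher. In females 1 was lower (Cox7a1) and 1 higher (Cox4i2), where 2.02% of all genes were lower and 3.97% higher. The members' median log2 fold change was -0.26 in males and -0.17 in females. MH lay below MC without overlap for 14 members (19.8% of all genes) and FH below FC for 7 (12.7% of all genes). No MH level was above MC without overlap (21.5% of all genes), and Cox4i2 was the 1 member with FH above FC (13.2% of all genes). In both sexes hypoxia was below for 4 members, Uqcrfs1, Cox7a1, Cox8b and Surf1 (6.92% of all genes), and above for none (7.79% of all genes). No member passed the test of a difference between the sexes in the response, where 0.00716% of all genes did, and 948 genes of all, Cox4i2 the 1 member among them, had an unadjusted p under 0.05. No member differed between females and males in normoxia or in hypoxia, where 0.0716% and 0.15% of all genes did; Cox4i2 was the 1 member with an unadjusted p under 0.05 in each. DESeq2 and limma voom called none in these 3 contrasts either. The male count was 11 without MH1, 8 without FH1 and 5 without FC3. It was 1 without each of MC2, MC3 and MH2, and 0 without MC1 and without MH3. Without MH2 and MH3 together, which left a single MH library, the members' male median was -0.07, against -0.01 over all genes. The female lower count was 4 without FH1 and 0 without FC1, FC2, FH2 or FH3. Over all genes, 991 of 13960 were lower in males, against 1008 of 14309 without MH1, 426 of 14303 without MC1 and 358 of 14235 without MH3. In females 282 of 13960 were lower, against 826 of 14331 without FH1 and 14 of 14295 without FH3.

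The partners of these complexes encoded elsewhere went the same way. Of the 4 mitochondrially encoded subunits of complexes III and IV, 3 were lower (mt-Co1, mt-Co2 and mt-Co3), with a median log2 fold change of -0.52. The catalytic subunit mt-Co1 was at -0.54 ± 0.11 (SE; adjusted p = 0.00531), from 97686 to 112578 CPM in MC to 48130 to 72511 CPM in MH, and from 85324 to 88503 CPM in FC to 58475 to 78297 CPM in FH. Neither sex overlapped. These genes stayed negative with library totals (-0.31) and on log2(TPM + 1) (-0.21).

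Of 10 assembly factors of complexes II and III, 6 were lower and none higher (median -0.40). The complex II factor Sdhaf4 was at -0.55 ± 0.11 (SE; adjusted p = 0.00473) and the complex III factor Lyrm7 at -0.59 ± 0.13 (SE; adjusted p = 0.00646). Of 21 further complex IV assembly factors tested, 9 were lower and none higher (median -0.31), Cox20 (-0.31 ± 0.07, SE; adjusted p = 0.00932) and Tmem177 (-0.63 ± 0.15, SE; adjusted p = 0.0101) among them. Without MH2 and MH3, which left a single MH library, the medians were -0.34 and -0.26. On log2(TPM + 1) none of either list was lower, with medians of -0.06 and 0.00.

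Genes known to link complex IV to oxygen split. Of 6 tested, 2 were higher, Ndufa4l2, a relative of a complex IV subunit known to rise in low oxygen (0.63 ± 0.10, SE; adjusted p = 0.00169), and Higd1b (0.73 ± 0.19, SE; adjusted p = 0.0158), and Chchd2 was lower (-0.36 ± 0.09, SE; adjusted p = 0.0114). The median of the 6 was -0.11 with all libraries and -0.07 without MH2 and MH3. Ndufa4l2 was at 19.6, 18.5 and 19.7 CPM in MC, 22.6, 23.9 and 28.9 CPM in MH, 17.3, 17.3 and 18.1 CPM in FC, and 24.7, 36.4 and 34.8 CPM in FH, with no overlap in either sex. Ndufa4l2 and Higd1b are also markers of vessel-wall cells, 5 of whose 10 listed markers were higher and 1 lower. The median log2 fold change of the 10 was 0.48, and 0.29 without MH2 and MH3. Of 4 rarer subunit isoforms or subunits, Cox6b2 alone had enough reads and was lower (-1.30 ± 0.24, SE; adjusted p = 0.00326) at 0.5 to 2.3 CPM. Ndufa4 was listed at 0 in 9 of the 12 libraries and was not tested.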

How the data were processed

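Ventricular RNA of 12 libraries, 3 per group, was prepared with a directional mRNA kit per the labels' protocols. The submitters' processing notes name FastQC, Salmon and the genome build GRCm39; tool versions, the annotation release and the strand setting are not given in the sources used here. The deposited table holds, per the file headers, counts, abundance and a length per gene, taken here as estimated counts, TPM and average transcript length. A gene's deposited TPM was used for levels between genes and for isoform shares.

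Estimated counts were rounded. Symbols matched 99.3% of 39210 Ensembl identifiers through an annotation of another build, used for names only; 0 columns belonged to no sample. edgeR 4.0.16 (R 4.3.3) fitted group means to 12 libraries (TMM factors, filterByExpr, 13960 genes, 8 residual degrees of freedom, quasi-likelihood test, two-sided). Adjusted p-values are Benjamini-Hochberg over all genes. Shares used an exact permutation test within sex, adjusted over 4 pairs. Both tests were run on simulated data. The simulated libraries had no shifts shared by a whole library, so the tests' behaviour with such shifts was not tested. SE came from the fold change and F. Alternatives used limma 3.58.1, DESeq2 1.42.0, other scalings and filters, and libraries left out.

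Deviations from group means of same-numbered libraries correlated at -0.0454 to 0.0286 within a sex (2 of 6 positive) and at -0.0417 to 0.186 across the sexes (11 of 12 positive, 1 over 0.1). Not every pair exceeded 0.1, so numbers were not taken as pairs. No 2 libraries were duplicates (highest correlation of log2 CPM 0.968). Values in each library are given for both isoforms of each pair and for up to 3 further members per role with the smallest averaged p, and up to 2 passing genes per other list. Members and lists were chosen with earlier results of these data known. Promoter windows are RefSeq sequence (GRCm38.p6). Members sharing a near-identical stretch with another gene were found by aligning transcripts, and the whole count of that gene was taken.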

Additional observations from a re-analysis of the deposited data

How the results depend on the processing

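Over 25 alternatives, counts of members that differed between the sexes, in normoxia, in hypoxia or in the response, stayed at 0. For the other counts, calls over all genes also moved, as given above for single libraries and scalings. Members lower in the averaged contrast (8) numbered 2 to 18 with 1 library left out. On scalings added after seeing the data, they numbered 2 with library totals, 5 with totals outside mitochondrially encoded and haemoglobin genes and 0 on log2(TPM + 1). Members higher numbered 2 with library totals and 2 on log2(TPM + 1). The members' median was -0.10 without MH2 and MH3 and -0.08 without these and FC3, against -0.02 over all genes in both. With the replicate block 10 were lower, and the numbers did not meet the rule for pairing: a hypoxia library correlated best with its own number in 1 of 3 male and 0 of 3 female cases, though between MC and FC and between MC and FH 3 of 3 did, between MH and FH 2 of 3 (MH1 with FH1 at 0.186) and between MH and FC 1 of 3. This is a hint in the data that numbers may be shared across the sexes. In males (3 lower) the count was 10 with DESeq2, where 1388 of 13960 genes were lower, against 991 with edgeR. It was 5 with a mean CPM of at least 1, 1 with transcript length as offset and 5 without mitochondrially encoded and haemoglobin genes. With library totals it was 0 (356 of 13960 genes lower). On log2(TPM + 1) it was 0 (151 of 13960 genes lower), and 1 member was higher. With 1 library left out it was 0 to 11. Without MH2 and MH3, with or without FC3, a single MH library is left, and the members' male median was -0.07. In females, the lower count (1) was 0 with library totals and on log2(TPM + 1) and 0 to 4 with 1 library left out; the higher count (1) was 0 with limma voom, no filter, length offset, and without MH2 and MH3 with or without FC3, and 0 to 1 with 1 library left out.

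The Cox7a1 share difference was -8.56 to -5.81 points and the Cox6a2 share difference -2.24 to -1.58 points with 1 library left out, all past the threshold. Both missed it without MH2 and MH3 (-8.69 points, adjusted p = 0.05 from an unadjusted 0.0125, the smallest that these libraries allow; -1.23 points, adjusted p = 0.0667) and under the replicate block (-7.17 and -1.90 points, both adjusted p = 0.0625 from an unadjusted 0.03125, the smallest that an exact permutation of 6 signs can give). The Cox8b share difference was -1.17 to -0.49 points with 1 library left out and passed without MH2 (adjusted p = 0.00667); the Cox4i2 share difference was 0.12 to 0.20 points and never passed.

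Averaged log2 fold changes turned positive on log2(TPM + 1) for 25 members, 11 given only as a count (up to 0.26) and the others Cox4i1 (0.15), Cox6a2 (0.058), Cox7a2 (0.14), Cox8a (0.12), Sdhb (0.0435), Uqcrfs1 (0.0082, and 0.013 in males), Uqcr11 (0.013), Cycs (0.033), Cox7c (0.10), Cox6b1 (0.0903), Cox6c (0.11), Surf1 (0.0436), Cox17 (0.12) and Uqcrc2 (0.0504). With library totals they did for 16, 10 given as a count (up to 0.16) and the others Cox4i1 (0.0418), Cox7a2 (0.0396), Cox8a (0.0092), Cox7c (0.0095), Cox6c (0.0085) and Cox17 (0.0561), and without MH2, MH3 and FC3 for Cox7a2 (0.0077) and Cox8a (0.013). Library totals placed the median gene at 0.20 and moved the members by 0.19 to 0.21. Log2(TPM + 1) placed it at 0.19 and did not move genes alike (members by 0.15 to 0.36, the atrial marker median from 2.40 to 1.80); the cause was not tested. Cox7a1 stayed negative under all 25 alternatives, from -0.75 to -0.37. Low counts limit Cox4i2, Cox15 and Surf1, and intervals cover these libraries only.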

Other observations

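The other complexes of oxidative phosphorylation were measured in the same contrast. Of 36 nuclear subunits of complex I, which feeds electrons from NADH into the chain, 19 were lower and none higher in hypoxia averaged over the sexes (edgeR's quasi-likelihood test), with a median log2 fold change of -0.25. Ndufa12 was at -0.50 ± 0.09 (SE; adjusted p = 0.00243) and Ndufa3 at -0.45 ± 0.09 (SE; adjusted p = 0.00405). Of 16 nuclear genes of ATP synthase, 3 were lower and none higher (median -0.22), among them Atpif1, the inhibitor of the enzyme's reverse reaction (-0.37 ± 0.07, SE; adjusted p = 0.00391), and Atp5k (-0.32 ± 0.08, SE; adjusted p = 0.0155). Without MH2 and MH3 the medians were -0.17 for complex I and -0.16 for ATP synthase. On log2(TPM + 1) the medians were 0.06 and 0.10, with 1 gene of each list higher and 1 complex I gene lower.

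Atrial markers were higher in hypoxia for 4 of the 6 tested, with Nppa at 2.36 ± 0.43 (SE; adjusted p = 0.00299) and Dkk3 at 2.44 ± 0.50 (SE; adjusted p = 0.00505). Of the 3 genes of the adipocyte list tested, Fabp4 was higher (0.56 ± 0.15, SE, adjusted p = 0.0155 with edgeR). Fabp4 reached 1180 CPM, whereas Adipoq did not exceed 2.19 CPM and Plin1 was at 0. The median over 8 endothelial markers was 0.58. Whether fat cells changed was not tested. With MH2 and MH3 left out, the atrial median was 0.83 in place of 2.40 and the adipocyte median 0.47 in place of 0.56. In females alone no marker of either list passed with edgeR; Nppa was at 1.61 ± 0.59 (SE; adjusted p = 0.121).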
